A study of Mus musculus with 12 samples.

Results

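The enzymes that methylate, demethylate and deacetylate histones were examined in CT26 cells, a mouse colon carcinoma line, by RNA sequencing. Their genes were chosen by name alone: every protein-coding gene of the expression table whose symbol began with Kmt, Kdm or Hdac and a digit, or with Setd and a digit or b. This gave 43 of the 12584 genes in the table, namely 8 Kmt, 9 Setd, 15 Kdm and 11 Hdac genes. The cells had been treated for 24 h with NP-D@MP, NP-D@M, NP@M or PBS, with 3 libraries in each of the 4 groups. The labels do not spell out NP, D, M or P; the series title speaks of an engineered-membrane nanodrug made from cancer cells and directed at CDKs, the cyclin-dependent kinases. All groups share the cell line and the treatment time, and the sample labels name no other cells, although the protocol text speaks of retinas. NP-D@M against NP@M differs by D, NP-D@MP against NP-D@M by P, and NP-D@MP and NP@M can each be set against PBS.

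Histone lysine methyltransferases of the Kmt and Setd families place methyl groups on lysines of histone H3 and H4, and the site decides how the mark is read: H3K4 methylation is found at promoters and enhancers of active genes, H3K36 methylation over transcribed gene bodies, and H3K9 and H4K20 methylation in heterochromatin. Kdm proteins remove these groups, the Kdm1 pair with a flavin-dependent amine oxidase fold and the others with a JmjC domain that needs iron, oxygen and 2-oxoglutarate. Hdac proteins remove acetyl groups; class I enzymes act in the nucleus within corepressor complexes, class IIa enzymes shuttle between nucleus and cytoplasm, and Hdac6 acts mainly on cytoplasmic proteins such as tubulin. Kmt and Kdm enzymes of these families are frequently mutated in human cancers, and inhibitors of HDACs are in clinical use against some of them.

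Expression was read from FPKM values, fragments per kilobase of gene length and per M of library size, as the authors deposited them. The reads behind the table, which could be recovered as whole numbers, summed to between 12.8 and 15.7 M per library. The authors had divided by another number, called the effective library size here, which was 7.13 to 8.40 M in the libraries with D in their name and 28.2 to 31.1 M in those without it. It was therefore 0.533 to 0.565 of the table's reads in libraries with D and 1.95 to 2.02 times them in those without, and every level is given on the deposited scale unless it is said to be scaled by table reads, that is, with the summed reads of the table as the divisor. The median log2 change of all tested genes in NP-D@M against NP@M was -0.19 on the deposited scale and -1.44 when scaled by table reads. Mitochondrially encoded messages took 7.41 to 14.4% of the reads with D and 3.30 to 4.20% without, and ribosomal protein genes took 13.0 to 15.1% with D and 5.60 to 6.37% without; the part of either in the results was not tested. The summed level of the 2 epithelial markers analysed (Krt18 and Krt20, of 9 looked up) was 80.0 to 91.1 FPKM in NP-D@MP, 73.0 to 87.7 in NP-D@M, 15.1 to 16.4 in NP@M and 15.2 to 18.7 in PBS. Krt20 alone averaged 80.4 FPKM in NP-D@MP, 78.0 in NP-D@M, 8.67 in NP@M and 9.27 in PBS. Of the 2, 1 was called higher and 1 lower in NP-D@MP against PBS (limma, adjusted p under 0.05). The shares of all tested genes there were 43.2% and 47.3%. In NP-D@M against NP@M, 1 was called higher and 0 lower, against 41.8% and 47.7%. For 6 of 9 stromal markers the sum was 12.9 to 15.4 FPKM in NP-D@MP, 11.1 to 13.1 in NP-D@M, 70.6 to 73.1 in NP@M and 71.9 to 86.6 in PBS. For 3 of 9 immune markers it was 13.8 to 21.3 FPKM in NP-D@MP, 9.31 to 18.3 in NP-D@M, 2.62 to 3.25 in NP@M and 2.57 to 2.85 in PBS, and the pan-leukocyte gene Ptprc was at 0 in all libraries of NP@M and PBS. Cd68 alone averaged 14.9 FPKM in NP-D@MP, 12.5 in NP-D@M, 2.38 in NP@M and 2.11 in PBS. Of 2 immune markers tested, 2 were called higher in NP-D@M against NP@M, and 0 when scaled by table reads. The shares of all tested genes were 41.8% and 17.5%. Of 11 retina markers only Sag was among the genes of the table, at no more than 0.589 FPKM in any library, and endothelial markers (3 of 5) summed to at most 0.810 FPKM. The part of these markers in the results was not tested. A change in a gene's RNA per cell and a change in which cells survived cannot be told apart in such bulk samples.

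**Figure D1:**
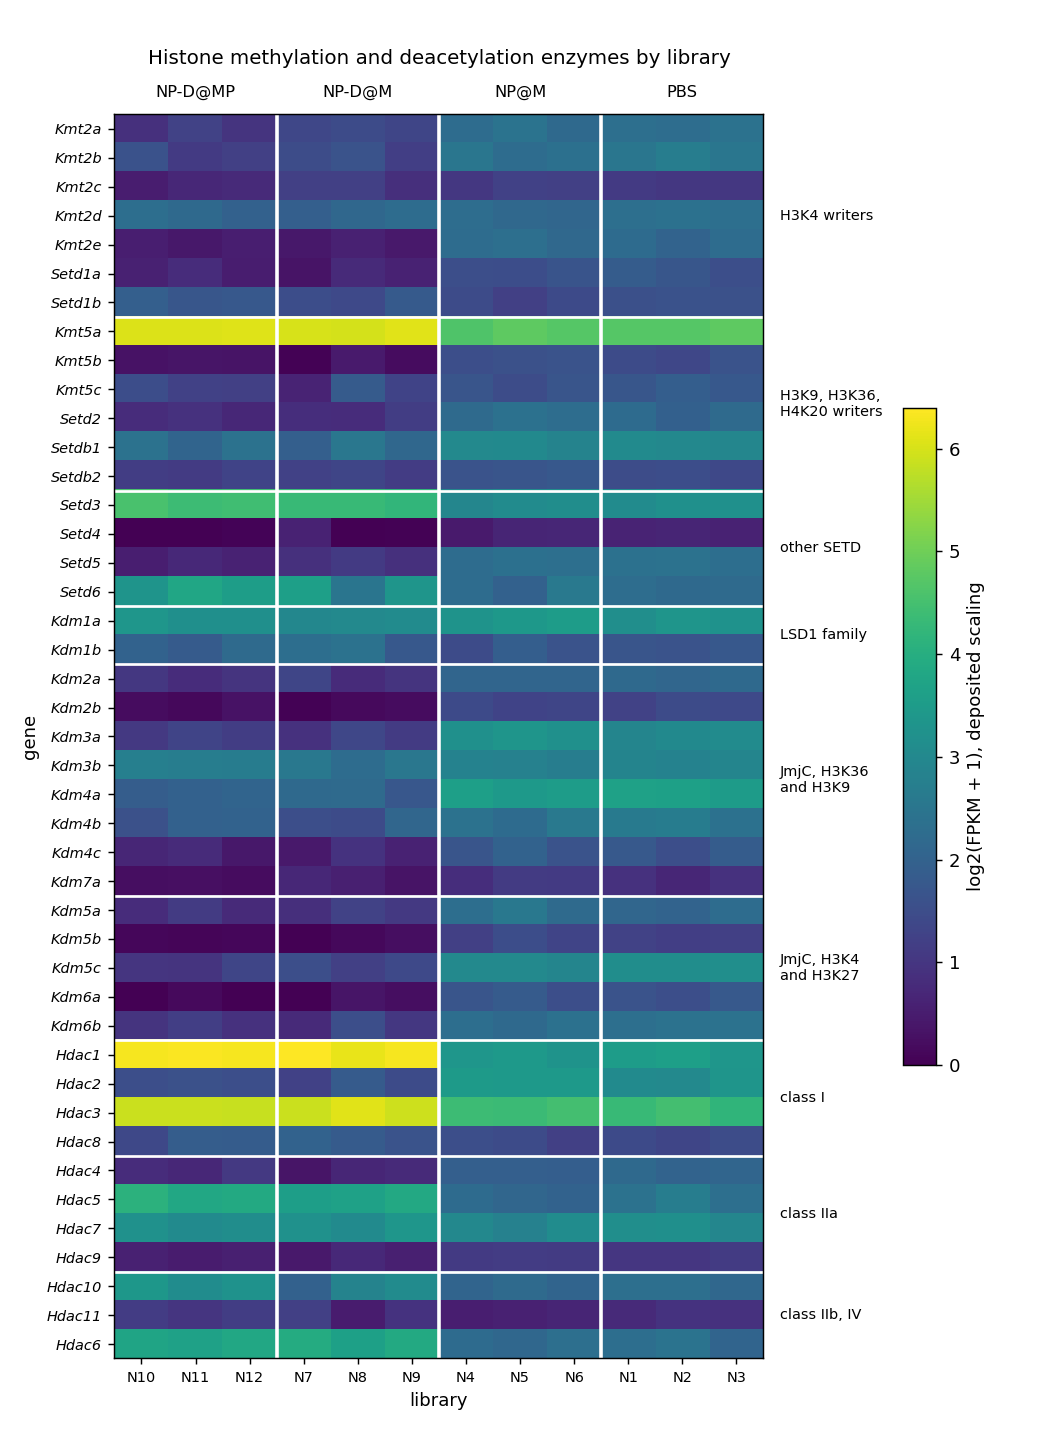
Level of each of the 43 genes (rows, grouped by role) in each of the 12 libraries (columns, grouped by treatment), as log2(FPKM + 1) on the deposited scale. Hdac1, Hdac3 and Kmt5a are brightest in the 6 libraries with D, while most Kmt and Kdm rows are darker there than in NP@M and PBS.

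Most of these genes differed in NP-D@M against NP@M, the comparison that isolates D. On the deposited scale 6 of 11 Hdac genes rose and 3 fell, with Hdac1 at 8.33-fold higher and Hdac2 at 5.28-fold lower, and 1 of 14 tested Kdm genes rose and 13 fell, with Kdm3a at 7.04-fold lower. Scaled by table reads, 1 Hdac gene was higher and 8 lower, and 0 and 14 Kdm genes. In the limma fit over all 12 libraries, 10 members were called higher and 25 lower of the 41 tested, at a Benjamini-Hochberg adjusted p under 0.05 over 10101 genes. Over all tested genes 41.8% were called higher and 47.7% lower, and no test was made of the difference between these shares and the members' 10 and 25 of 41. The median log2 change was -0.53 for the 43 members and -0.14 for all 12584 genes without a filter. A filter of 1 FPKM in at least 3 libraries left out Setd4 and Kdm7a, and 8 members passed it through the libraries without D alone (Kmt2e, Setd1a, Kmt5b, Kdm2b, Kdm4c, Kdm5b, Kdm6a and Hdac9) and 1 through libraries with D alone (Hdac11); with no filter 10 were called higher and 27 lower, against 35.1% and 45.8% of all genes. The ranges of the 2 groups did not overlap for 7 members higher and 26 lower in NP-D@M, against 34.4% and 46.0% of all genes in the table. Stretches shared with other annotated genes make further levels uncertain: by 50-base words these are 51.2% of Setd1a, 24.1% of Kdm3b, 21.6% of Hdac4, 16.4% of Setd3, 15.3% of Hdac11, 12.5% of Kdm2b and 10.2% of Setdb1.

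These directions depend on the scaling. Scaled by table reads, 1 member (Hdac1) was called higher and 38 lower, against 17.5% and 70.5% of all tested genes. Voom on the recovered reads with table reads as library sizes also gave 1 and 38, against 17.1% and 70.5% of all genes, and leaving mitochondrial and ribosomal protein genes out of the scaling left 1 higher, against 21.0%. At a log2 change of at least 1 on the deposited scale there were 6 higher and 16 lower, against 30.1% and 28.4%. Among genes with a mean of at least 5 FPKM, 5 of 14 members were lower, against 27.9%. No call of these 14 changed under that filter, and Hdac1, Hdac3, Hdac5, Hdac6, Hdac10, Kmt5a, Setd3 and Setd6 stayed called higher. The share of all such genes called higher is not given here. The scaling divides all genes of a library by the same number, so it moves all members the same way, as the plot of changes under both scalings shows. With 1 FPKM added before the log, low genes move by less. Kmt5a went from 1.31 to -0.48 and the low gene Hdac11 from 0.28 to -0.44. Statements below on rises other than that of Hdac1 therefore hold for the deposited scale.

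**Figure D2:**
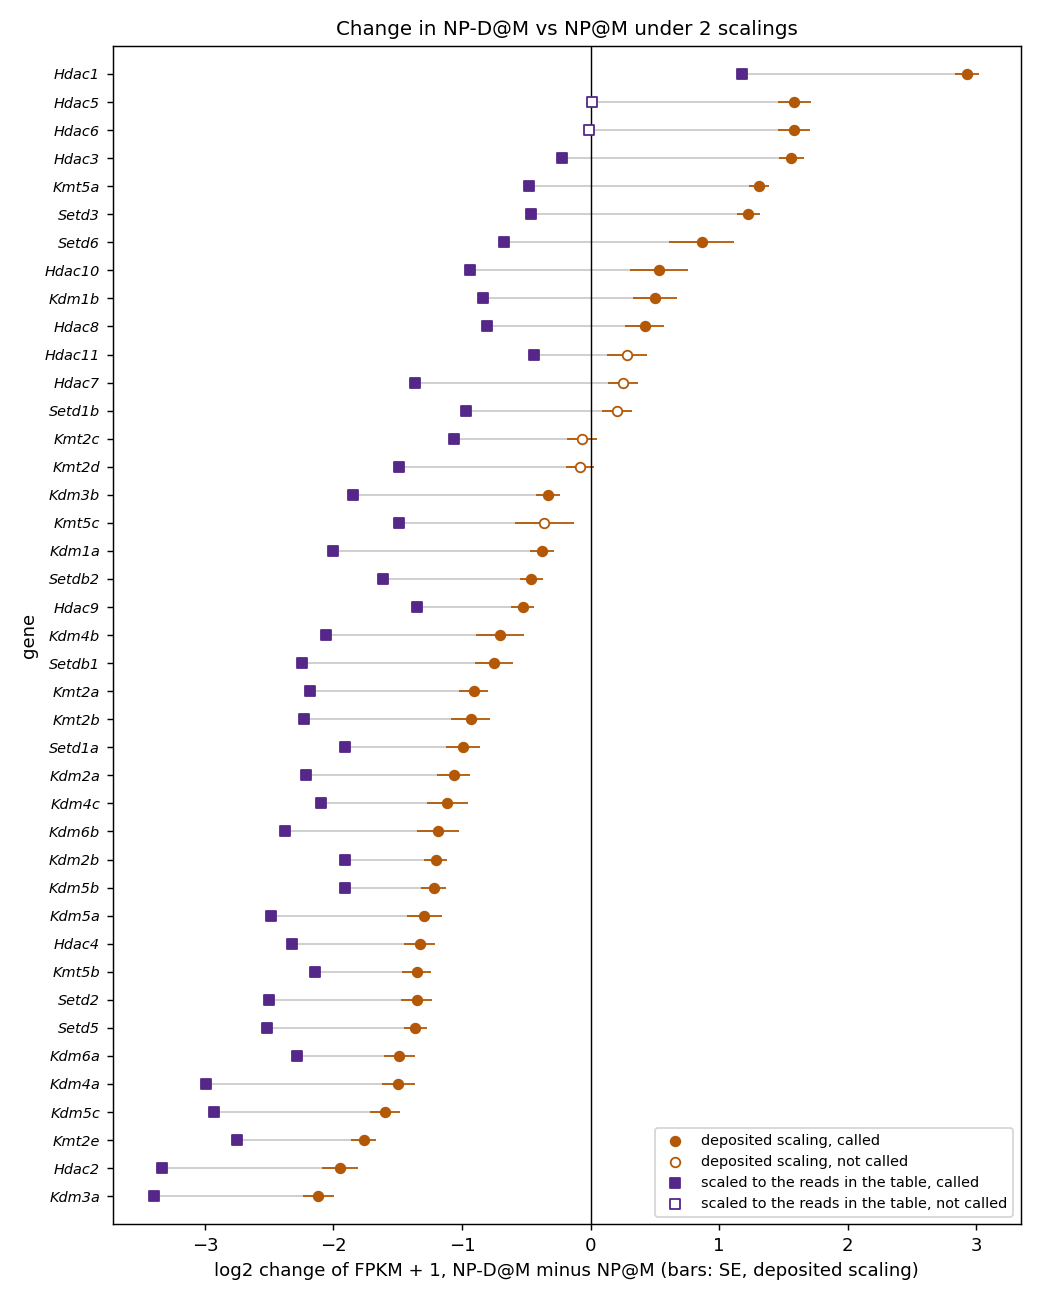
Log2 change of FPKM + 1 in NP-D@M minus NP@M for the 41 tested members (rows, sorted), on the deposited scale (circles, with SE) and scaled by table reads (squares); filled symbols were called. Hdac1 is right of 0 under both scalings, at 2.93 and 1.18, whereas Hdac3 and Kmt5a lie on opposite sides of 0 under the 2 scalings.

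The summed FPKM of the 43 members was 329 to 334 in NP-D@MP, 320 to 330.0 in NP-D@M, 207 to 212 in NP@M and 210 to 216 in PBS. Scaled by table reads the order was the opposite: the summed reads of the 43 members were 944 ± 18.3 per M reads of the table in NP-D@MP, 973 ± 10.9 in NP-D@M, 3140 ± 24.6 in NP@M and 3180 ± 53.2 in PBS (SD, n = 3 each). Shares within the summed FPKM of a library do not depend on the divisor. The 11 Hdac genes made up 56.2% ± 0.237 of that sum in NP-D@MP, 57.1% ± 0.142 in NP-D@M, 30.04% ± 0.728 in NP@M and 30.2% ± 1.48 in PBS. The 15 Kdm genes made up 8.76% ± 0.166 in NP-D@MP, 8.75% ± 0.399 in NP-D@M, 32.5% ± 0.471 in NP@M and 31.8% ± 0.638 in PBS. Hdac1, Hdac3 and Kmt5a alone held 61.1% ± 0.703 of it in NP-D@MP, 62.9% ± 0.380 in NP-D@M, 26.2% ± 0.433 in NP@M and 26.0% ± 0.612 in PBS. These sums were chosen after the values were seen and are a description without a test. In both groups with D, Hdac1, Kmt5a and Hdac3 were the 3 highest of the family, whereas demethylases such as Kdm4a and Kdm1a were among the highest in NP@M and PBS.

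Among class I HDACs, the closely related Hdac1 and Hdac2, which are found together in the Sin3, NuRD and CoREST complexes, went opposite ways. Hdac1 (chromosome 4, 129516104 to 129542713, minus strand, GRCm38) was at 78.1, 80.6 and 78.1 FPKM in the NP-D@MP libraries, 83.3, 71.4 and 79.0 in NP-D@M, 9.33, 9.92 and 8.82 in NP@M, and 10.6, 11.2 and 9.35 in PBS. The 6 libraries with D stood far above the 6 without, and NP-D@MP overlapped with NP-D@M, as NP@M did with PBS. Its log2 change was 2.93 (SE 0.09, adjusted p = 1.55e-10 by limma) in NP-D@M against NP@M, and 1.18 when scaled by table reads. Of its 50-base words, 35.5% also occur in other annotated genes, among which Gm10093 shares the most. Gm10093, a gene of the same table, averaged 95.9 ± 5.09 FPKM in NP-D@MP, 93.6 ± 13.2 in NP-D@M, 12.6 ± 1.07 in NP@M and 15.1 ± 0.832 in PBS. Reads of Hdac1 and Gm10093 could thus be split between them, and the exact level of Hdac1 is uncertain. Hdac2 (chromosome 10, 36974544 to 37001889, plus strand) was at 1.91, 2.004 and 1.91 FPKM in NP-D@MP, 1.36, 2.56 and 1.77 in NP-D@M, 10.3, 9.83 and 9.93 in NP@M, and 7.41, 7.04 and 9.13 in PBS. Every library with D was below every library without. The log2 change was -1.95 (SE 0.14, adjusted p = 8.80e-08 by limma) in NP-D@M against NP@M, and -3.33 when scaled by table reads. In reads, Hdac2 had 51 to 83 per library in NP-D@M and 1303 to 1407 in NP@M, whereas Hdac1 had 1784 to 2409 in NP-D@M and 944 to 1012 in NP@M. Their ratio within a library, Hdac1 FPKM over Hdac2 FPKM, was 40.6 ± 0.346 in NP-D@MP, 44.6 ± 16.7 in NP-D@M, 0.936 ± 0.0641 in NP@M and 1.35 ± 0.292 in PBS (SD, n = 3 each).

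Hdac3, the catalytic subunit of the NCoR and SMRT complexes, was at 58.5, 57.7 and 57.1 FPKM in NP-D@MP, 57.8, 67.6 and 59.6 in NP-D@M, 19.8, 19.5 and 21.2 in NP@M, and 18.7, 21.2 and 17.3 in PBS. Libraries with D were all above those without, by 1.56 on the log2 scale in NP-D@M against NP@M (SE 0.10, adjusted p = 2.45e-08 by limma), but at -0.22 when scaled by table reads (adjusted p = 0.0418) and at 0.10 under quantile normalization (adjusted p = 0.363). Hdac8, a class I enzyme that deacetylates the cohesin subunit Smc3, averaged 2.57 ± 0.482 FPKM in NP-D@M and 1.66 ± 0.296 in NP@M and rose by 0.42 on the log2 scale (adjusted p = 0.0211 by limma; -0.81 scaled by table reads). That call was lost without library N6 (adjusted p = 0.0872) or N7 (adjusted p = 0.0787).

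**Figure D3:**
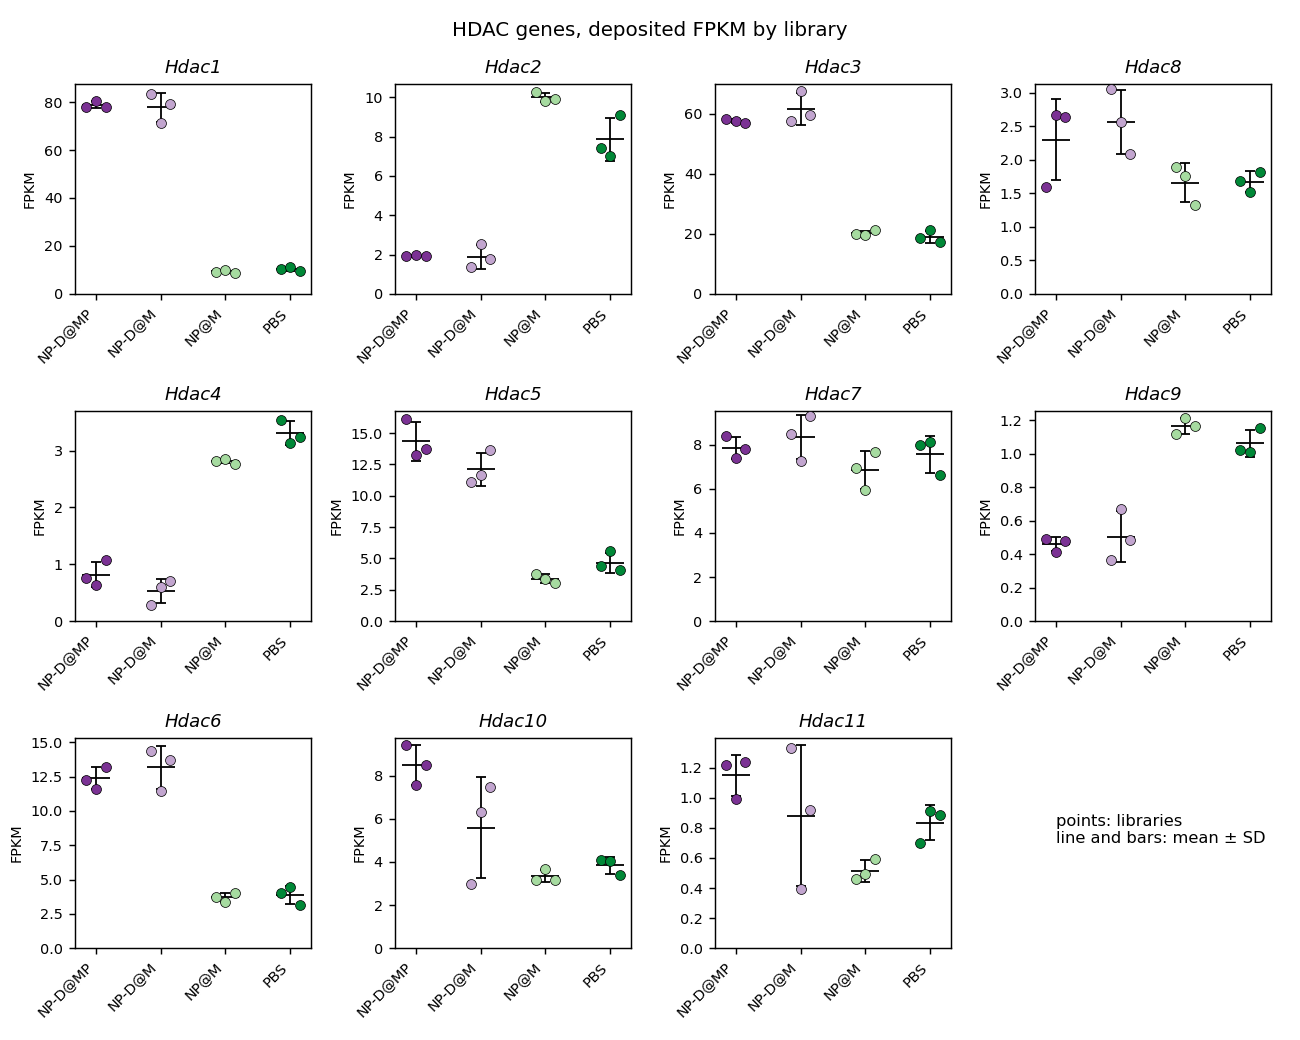
Deposited FPKM of the 11 Hdac genes in each library (points) with the mean and SD of each group (line and bars), each panel with its own linear axis that starts at 0. Hdac1 is at 71.4 to 83.3 FPKM with D and 8.82 to 11.2 without; Hdac2 and Hdac4 show the opposite order, and Hdac7 overlaps between groups.

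Class IIa HDACs, which have weak deacetylase activity of their own and bind MEF2 factors, also divided. Hdac5 was at 16.1, 13.2 and 13.7 FPKM in NP-D@MP, 11.1, 11.6 and 13.6 in NP-D@M, 3.75, 3.34 and 3.03 in NP@M, and 4.36, 5.57 and 4.06 in PBS, higher in every library with D. The rise in NP-D@M against NP@M was 1.58 on the log2 scale (SE 0.13, adjusted p = 2.32e-07 by limma), and the change was 0.01 when scaled by table reads. Hdac4 was at 0.753, 0.634 and 1.07 FPKM in NP-D@MP, 0.286, 0.601 and 0.701 in NP-D@M, 2.82, 2.86 and 2.77 in NP@M, and 3.54, 3.13 and 3.25 in PBS. It was lower in every library with D (log2 change -1.33, SE 0.12, adjusted p = 7.18e-07 by limma). The ratio of Hdac5 to Hdac4 within a library was 18.4 ± 4.82 in NP-D@MP, 25.9 ± 11.2 in NP-D@M, 1.20 ± 0.121 in NP@M and 1.42 ± 0.310 in PBS. Hdac9 fell to 0.505 ± 0.152 FPKM in NP-D@M, against 1.17 ± 0.0476 in NP@M, but its log2 change was 0.11 under quantile normalization. It had passed the filter through libraries without D alone. Hdac7 was at 8.36 ± 1.02 FPKM in NP-D@M and 6.86 ± 0.849 in NP@M (log2 change 0.25, adjusted p = 0.0622 by limma; -1.36 scaled by table reads), and was called higher without N6 (adjusted p = 0.0379) or N8 (adjusted p = 0.0223). Of the class IIb genes, Hdac6, the tubulin deacetylase, was at 12.3, 11.6 and 13.2 FPKM in NP-D@MP, 14.4, 11.4 and 13.7 in NP-D@M, 3.75, 3.38 and 4.04 in NP@M, and 3.99, 4.45 and 3.15 in PBS. Libraries with and without D did not overlap, and the log2 change in NP-D@M against NP@M was 1.58 (SE 0.12, adjusted p = 1.74e-07 by limma), or -0.01 scaled by table reads. Hdac10, which acts on acetylated polyamines, was at 2.96, 6.32 and 7.46 FPKM in NP-D@M and 3.18, 3.66 and 3.15 in NP@M, and its call as higher (log2 change 0.53, adjusted p = 0.0410 by limma; -0.94 scaled by table reads) was lost without N4, N5, N6, N8 or N9, where the adjusted p was between 0.0558 and 0.178. The class IV gene Hdac11 stayed under 1.34 FPKM in every library and was not called on the deposited scale (log2 change 0.28). It had passed the filter through libraries with D alone. It was called higher without N8 (0.48, adjusted p = 0.00190 by limma) and under quantile normalization (0.81, adjusted p = 0.000342), and lower when scaled by table reads (-0.44, adjusted p = 0.00502). In all, 6 of 11 Hdac genes were called higher and 3 lower on the deposited scale, against 41.8% and 47.7% of all tested genes. Scaled by table reads these counts were 1 and 8, against 17.5% and 70.5%.

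All JmjC demethylases tested fell in NP-D@M against NP@M: 7 of 7 genes acting on H3K36 and H3K9 (Kdm2a, Kdm2b, Kdm3a, Kdm3b and Kdm4a to Kdm4c) and 5 of 5 acting on H3K4 and H3K27 (Kdm5a to Kdm5c, Kdm6a and Kdm6b). The median log2 change was -1.11 in the first list and -1.29 in the second, beside -0.19 for all tested genes, of which 47.7% were called lower (70.5% scaled by table reads). Of the 12, Kdm2b, Kdm4c, Kdm5b and Kdm6a had passed the filter through libraries without D alone. None of these 12 turned direction when scaled by table reads or under quantile normalization, though under the quantile setting Kdm3b (-0.17, adjusted p = 0.127 by limma) and Kdm4b (-0.27, adjusted p = 0.174) were no longer called. Kdm7a, which did not pass the filter, had 0.457 ± 0.187 FPKM in NP-D@M and 1.03 ± 0.213 in NP@M, and was called lower in the fit without a filter (adjusted p = 0.00231 by limma). Kdm3a (chromosome 6, 71588972 to 71632990, minus strand), an oxygen-sensitive H3K9 demethylase that is induced by hypoxia, had the smallest adjusted p of its list. It was at 1.11, 1.47 and 1.24 FPKM in NP-D@MP, 0.883, 1.58 and 1.17 in NP-D@M, 8.20, 9.14 and 8.21 in NP@M, and 6.54, 7.22 and 7.55 in PBS (log2 change -2.12, SE 0.12, adjusted p = 1.15e-08 by limma for NP-D@M against NP@M). No library with D came near those without. Kdm5c, the X-linked H3K4 demethylase, was at 0.997, 0.964 and 1.52 FPKM in NP-D@MP, 1.91, 1.30 and 1.66 in NP-D@M, 7.06, 7.09 and 6.56 in NP@M, and 7.84, 7.84 and 7.88 in PBS (log2 change -1.60, SE 0.12, adjusted p = 1.03e-07 by limma). Kdm6b, which removes H3K27 methylation and is induced in inflammatory signalling, was at 0.961, 1.27 and 0.867 FPKM in NP-D@MP, 0.685, 1.88 and 1.07 in NP-D@M, 3.99, 3.55 and 4.19 in NP@M, and 4.08, 4.30 and 4.35 in PBS (log2 change -1.18, adjusted p = 2.93e-05 by limma). For both genes every value with D was below every value without.

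Several of these demethylases had few reads in the libraries with D. Kdm6a, the X-linked H3K27 demethylase, had 1, 7 and 1 reads in the NP-D@MP libraries, 0, 18 and 13 in NP-D@M, 574, 644 and 500 in NP@M, and 545, 494 and 585 in PBS. Kdm5b had 10, 8 and 9 reads in NP-D@MP, 0, 12 and 24 in NP-D@M, 674, 909 and 756 in NP@M, and 715, 647 and 611 in PBS. Kdm2b, which recruits a variant Polycomb complex to CpG islands, had 13, 9 and 18 reads in NP-D@MP, 3, 10 and 14 in NP-D@M, 563, 459 and 519 in NP@M, and 460, 588 and 510 in PBS. The reads in the table were alike between these libraries, so the falls are visible before any scaling. Smaller falls were those of Kdm3b, to 4.51 ± 0.610 FPKM in NP-D@M against 5.90 ± 0.297 in NP@M, and Kdm4b, to 2.33 ± 0.871 in NP-D@M against 4.35 ± 0.650 in NP@M.

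The LSD1 family differed. Kdm1a, or LSD1, the H3K4 demethylase of the CoREST complex, was at 9.22, 8.15 and 8.15 FPKM in NP-D@MP, 6.85, 7.08 and 7.53 in NP-D@M, 8.73, 9.58 and 10.5 in NP@M, and 7.87, 9.09 and 8.63 in PBS. It fell by 0.38 on the log2 scale in NP-D@M against NP@M (SE 0.10, adjusted p = 0.00280 by limma), with no overlap between these groups. Kdm1b, its paralogue, was at 3.99, 4.31 and 2.42 FPKM in NP-D@M and 1.74, 2.76 and 2.11 in NP@M, which overlap. It was the single Kdm gene called higher (log2 change 0.50, SE 0.17, adjusted p = 0.0169 by limma), was at -0.84 when scaled by table reads, and lost the call without N4, N7 or N8 (adjusted p of 0.0722, 0.0565 and 0.0676).

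Of the H3K4 methyltransferases, 4 of 7 fell (Kmt2a, Kmt2b, Kmt2e and Setd1a) and none rose on the deposited scale in NP-D@M against NP@M. Of all tested genes, 47.7% were called lower and 41.8% higher. Kmt2e and Setd1a had passed the filter through libraries without D alone. Kmt2a, the MLL protein, was at 0.834, 1.42 and 0.959 FPKM in NP-D@MP, 1.58, 1.74 and 1.53 in NP-D@M, 3.79, 4.43 and 3.55 in NP@M, and 4.03, 3.88 and 4.30 in PBS (log2 change -0.91, SE 0.11, adjusted p = 1.18e-05 by limma for NP-D@M against NP@M). Kmt2e, which carries a SET domain with little methyltransferase activity of its own, fell most, with 0.331, 0.515 and 0.362 FPKM in NP-D@M against 3.75, 4.07 and 3.47 in NP@M (log2 change -1.77, SE 0.10, adjusted p = 8.45e-09 by limma), and 0.461, 0.328 and 0.443 in NP-D@MP against 3.75, 3.13 and 3.77 in PBS. Kmt2d, the large enhancer H3K4 methyltransferase, was at 3.97, 3.56 and 2.997 FPKM in NP-D@MP, 2.80, 3.38 and 3.80 in NP-D@M, 3.89, 3.48 and 3.34 in NP@M, and 4.05, 4.24 and 4.04 in PBS. Its groups overlapped in NP-D@M against NP@M (log2 change -0.08, SE 0.11, adjusted p = 0.479 by limma), and the same held for Kmt2c and Setd1b. Setd1b was called higher without N8 (log2 change 0.29, adjusted p = 0.0405 by limma). Under quantile normalization Setd1b (0.80, adjusted p = 2.67e-05), Kmt2c (0.56, adjusted p = 0.00169) and Kmt2d (0.36, adjusted p = 0.00627) were all called higher. All 7 were called lower when scaled by table reads, against 70.5% of all tested genes.

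Among the methyltransferases of H3K9, H3K36 and H4K20, 1 of 6 rose and 4 fell, against 41.8% and 47.7% of all tested genes. Of these, Kmt5b had passed the filter through libraries without D alone. Kmt5a (chromosome 5, 124439930 to 124462308, plus strand), which places the first methyl group on H4K20 and is itself regulated through the cell cycle, was at 65.4, 65.2 and 67.3 FPKM in NP-D@MP, 63.2, 62.5 and 67.8 in NP-D@M, 24.0, 26.9 and 25.4 in NP@M, and 25.3, 25.2 and 26.9 in PBS. The groups with and without D were far apart and each was tight; the log2 change was 1.31 (SE 0.08, adjusted p = 2.19e-08 by limma) in NP-D@M against NP@M, -0.48 when scaled by table reads and -0.29 under quantile normalization. Kmt5b, which adds further methyl groups to H4K20, had 0.0338, 0.371 and 0.155 FPKM in NP-D@M against 1.92, 1.999 and 2.11 in NP@M (log2 change -1.35, SE 0.11, adjusted p = 3.35e-07 by limma), and 0.237, 0.290 and 0.268 in NP-D@MP against 1.77, 1.56 and 2.12 in PBS. Its paralogue Kmt5c was not called on the deposited scale, and was called lower without N8 (log2 change -0.65, adjusted p = 0.00431 by limma) and when scaled by table reads (-1.49, adjusted p = 5.83e-06). Setd2, the main enzyme of H3K36 trimethylation, was at 0.759, 0.895 and 0.652 FPKM in NP-D@MP, 0.797, 0.756 and 1.23 in NP-D@M, 3.65, 4.23 and 3.85 in NP@M, and 3.72, 2.90 and 3.60 in PBS (log2 change -1.35, SE 0.12, adjusted p = 4.99e-07 by limma). The H3K9 methyltransferases Setdb1 and Setdb2 fell to 3.70 ± 1.04 FPKM in NP-D@M against 6.80 ± 0.511 in NP@M, and to 1.36 ± 0.165 in NP-D@M against 2.25 ± 0.132 in NP@M; the log2 change of Setdb2 was 0.16 under quantile normalization.

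The remaining Setd genes encode proteins with other or less known substrates. Of 3 tested, 2 rose and 1 fell, against 41.8% and 47.7% of all tested genes. Setd3, the histidine methyltransferase of actin, was at 22.6, 19.7 and 20.6 FPKM in NP-D@MP, 18.8, 19.0 and 17.6 in NP-D@M, 6.64, 7.54 and 7.80 in NP@M, and 7.57, 8.30 and 8.18 in PBS (log2 change 1.23, SE 0.09, adjusted p = 1.13e-07 by limma; -0.46 scaled by table reads). Setd6, which methylates the NF-kB subunit RelA, was at 8.85, 12.8 and 10.8 FPKM in NP-D@MP, 11.2, 4.56 and 9.09 in NP-D@M, 3.77, 2.98 and 4.99 in NP@M, and 3.92, 3.53 and 3.66 in PBS. Its groups overlapped in NP-D@M against NP@M, where it was called higher (log2 change 0.86, SE 0.25, adjusted p = 0.00711 by limma; -0.68 scaled by table reads). Setd5 was at 0.459, 0.676 and 0.527 FPKM in NP-D@MP, 0.844, 1.12 and 0.856 in NP-D@M, 3.79, 4.13 and 4.04 in NP@M, and 4.19, 4.33 and 3.97 in PBS, lower in every library with D (log2 change -1.36, adjusted p = 4.60e-08 by limma). Setd4 had 24, 0 and 1 reads in NP-D@M and 63, 92 and 101 in NP@M and did not pass the filter. It was called lower in the fit without a filter, as were 45.8% of all genes.

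NP-D@MP against PBS sets the preparation with both D and P in its name against PBS-treated cells. It has no library in common with NP-D@M against NP@M. Here 8 members were called higher and 24 lower of 41 tested, against 43.2% and 47.3% of all tested genes; scaled by table reads, 1 was called higher (Hdac1) and 37 lower, against 17.5% and 70.8%. The same voom setting gave 1 and 37, against 17.1% and 70.6%, and the scaling without mitochondrial and ribosomal protein genes 1 higher, against 20.7%. A mean of at least 5 FPKM gave 3 lower, against 27.1%, and all 8 members called higher stayed called higher under it. The median log2 change without a filter was -0.62 for the 43 members and -0.11 for all genes. Beside the calls in NP-D@M against NP@M, 8 members were higher in both comparisons, which is 80% of the 10 and 100% of the 8, and 23 were lower in both, which is 92% of the 25 and 95.8% of the 24. Over all tested genes, the shared calls were 95.8% of those higher in NP-D@M against NP@M and 92.6% of those higher in NP-D@MP against PBS, and 95.3% and 96.0% of those lower. None was called in opposite directions. On the deposited scale, Hdac8, Kdm1b, Kdm1a and Kdm3b were called in NP-D@M against NP@M alone, and Kmt2c in NP-D@MP against PBS alone. Whether these differ between the comparisons was not tested. Scaled by table reads, each of these genes was called lower in both comparisons. Under quantile normalization, Kdm1b (log2 change 0.82) and Hdac8 (0.84) were called higher and Kdm1a (-0.27) lower in NP-D@MP against PBS. Kdm3b (-0.22) was called lower there when scaled to a common median ratio, and Kdm1b (0.32) higher with only the 6 libraries compared. Without N10, Hdac8 was called higher in NP-D@MP against PBS too (log2 change 0.45, adjusted p = 0.00937 by limma). The LSD1 gene Kdm1a was at 8.505 ± 0.617 FPKM in NP-D@MP and 8.53 ± 0.613 in PBS. The largest fall was that of Kdm5c, with a log2 change of -2.05 (SE 0.12, adjusted p = 1.16e-08 by limma), and the largest rise that of Hdac1, at 2.82 (SE 0.09, adjusted p = 1.80e-10 by limma).

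**Figure D4:**
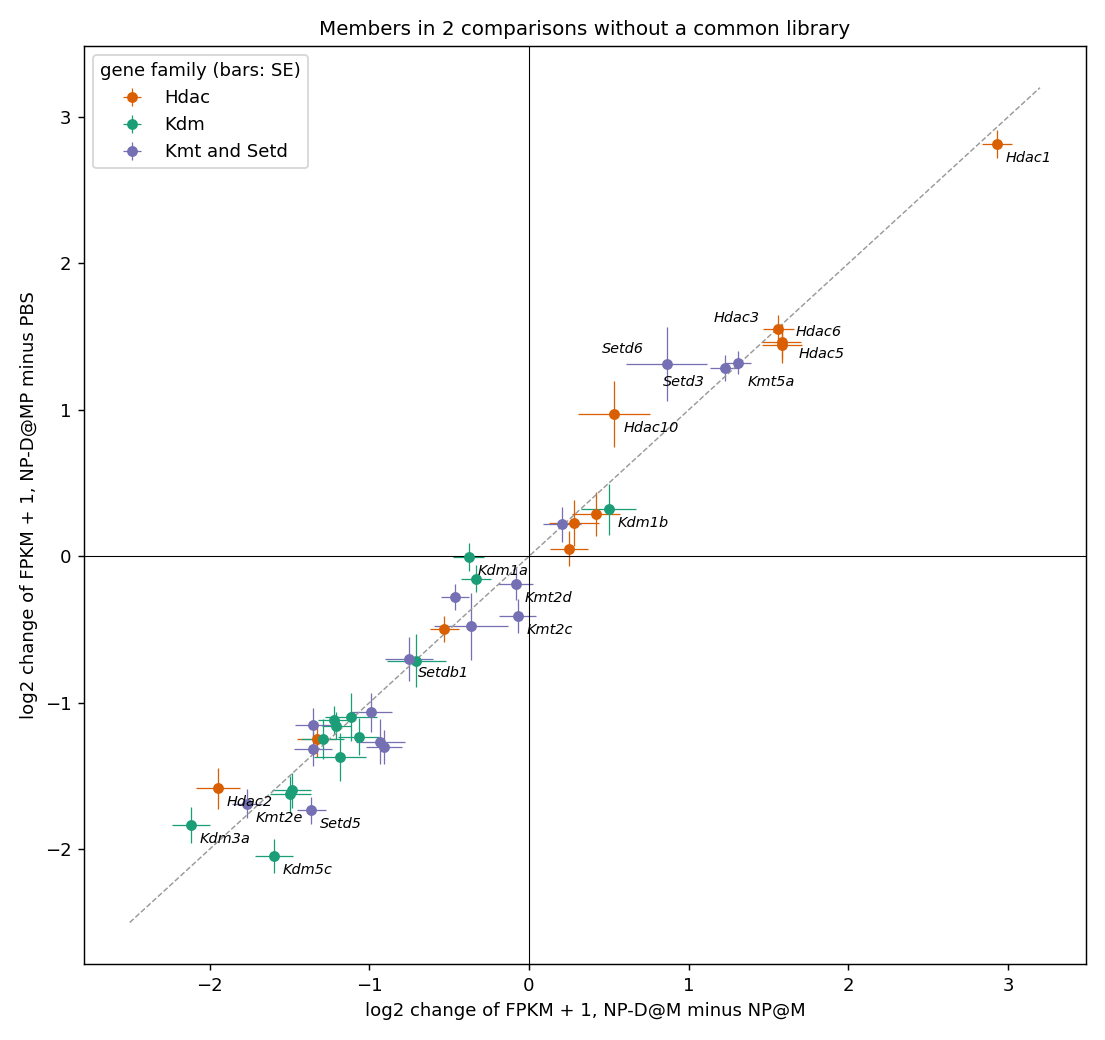
Log2 change of FPKM + 1 for the 41 tested members in NP-D@M minus NP@M (horizontal) and in NP-D@MP minus PBS (vertical), with SE bars, coloured by gene family; the dashed line marks equal change. Hdac1 lies at the upper right, at 2.93 and 2.82, and most Kdm genes lie at the lower left.

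NP-D@MP against NP-D@M asks what P adds in the presence of D. No member was called higher or lower by limma, against 0.0396% and 0.00990% of all tested genes. At an unadjusted p under 0.05 there were 7 members, 17.1% of those tested and close to the 17.0% of all genes, and voom on the recovered reads also called 0, as it did over all genes (0%). The ranges did not overlap for 4 members higher and 4 lower in NP-D@MP, against 9.01% and 4.24% of all genes in the table. The absence of calls depended on library N9 of NP-D@M. Without it, Hdac10 was called higher (log2 change 0.81, adjusted p = 0.0340 by limma), and Kmt2c (-0.55, adjusted p = 0.0103) and Setd5 (-0.35, adjusted p = 0.0456) lower in NP-D@MP, while the calls over all genes came to 9.59% higher and 2.87% lower. Kmt2c, an enhancer H3K4 methyltransferase, was at 0.415, 0.643 and 0.684 FPKM in NP-D@MP and 1.30, 1.32 and 0.804 in NP-D@M, where the third of these values is N9. Hdac10 was at 9.42, 7.57 and 8.51 FPKM in NP-D@MP and 2.96, 6.32 and 7.46 in NP-D@M. N9 also had the smallest mitochondrial share of its group, at 9.06%, and the most genes with a read, 11546 against 10385 and 10410 in N7 and N8; the part of this in the result was not tested.

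NP@M against PBS sets the preparation with neither D nor P in its name against PBS-treated cells. No member was called in either direction, against 0% higher and 0.00990% lower over all tested genes, and at an unadjusted p under 0.05 there were 3 (Hdac2 and Setdb2 higher, Hdac5 lower), 7.32% of the members and 10.8% of all genes. Voom on the recovered reads also called 0. The largest difference among the members was that of Hdac5, at 3.37 ± 0.358 FPKM in NP@M and 4.66 ± 0.796 in PBS (log2 change -0.37, adjusted p = 0.448 by limma). The ranges did not overlap for 3 members higher and 10 lower in NP@M, against 11.7% and 14.7% of all genes.

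The order of the members by level followed D as well. In NP@M the highest means were those of Kmt5a (25.4 FPKM), Hdac3 (20.2), Kdm4a (10.6), Hdac2 (10.004), Kdm1a (9.62) and Hdac1 (9.36), and in PBS those of Kmt5a (25.8), Hdac3 (19.1), Kdm4a (11.1), Hdac1 (10.4) and Kdm1a (8.53). With spreads of 0.220 to 0.909 FPKM in NP@M, Hdac2, Kdm1a and Hdac1 do not separate there. In NP-D@MP the order was Hdac1 (78.9), Kmt5a (66.0), Hdac3 (57.8), Setd3 (21.0), Hdac5 (14.4) and Hdac6 (12.4), and in NP-D@M Hdac1 (77.9), Kmt5a (64.5), Hdac3 (61.7), Setd3 (18.4), Hdac6 (13.2) and Hdac5 (12.1). Kmt5a and Hdac3 overlapped in NP-D@M and did not in NP-D@MP. Hdac2 held rank 19 in both groups with D, rank 4 in NP@M and rank 7 in PBS.

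The members also differed by the size of their genes. Across the 43, the correlation of the log2 change in NP-D@M against NP@M with the log10 genomic span was -0.33 (Pearson; Spearman -0.40), and with the log10 deposited gene length -0.44 (Spearman -0.43); across the 8912 tested protein-coding genes of the table these were -0.22 and -0.29 (Pearson). Genes share the libraries and are not independent replicates, so no p is given. Of 18 members spanning over 60 kb, 2 were called higher and 14 lower, with a median log2 change of -1.09; over all such genes 27.9% were called higher and 62.4% lower, with a median of -0.59. Of 3 members under 10 kb (Setd6, Hdac10 and Kmt5c), 2 were called higher and 0 lower, against 51.1% and 38.5% of all such genes. Size did not sort all members: Hdac1 and Hdac2 span 26.6 and 27.3 kb and changed in opposite directions. For NP-D@MP against PBS the Pearson correlation with log10 span was -0.37 across members and -0.22 across tested protein-coding genes. It was -0.40 and -0.24 in NP-D@MP against NP-D@M, where no member was called, and 0.24 and 0.28 in NP@M against PBS.

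**Figure D5:**
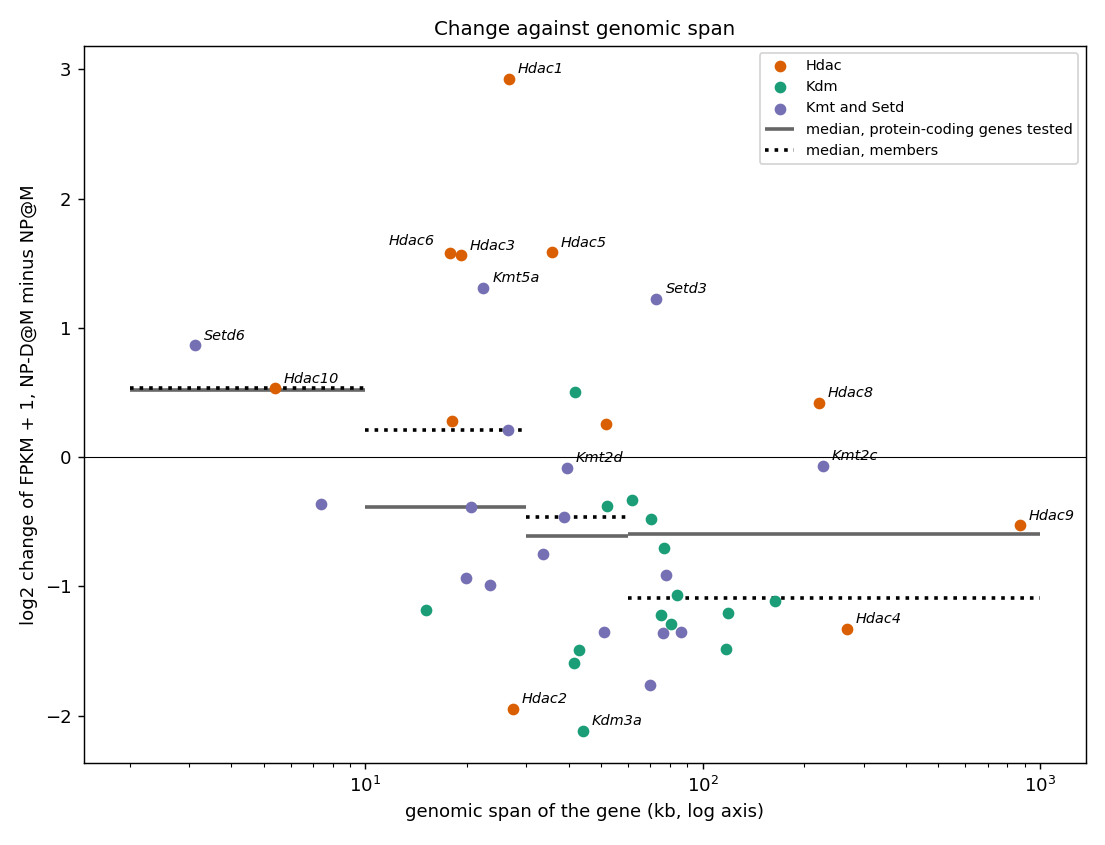
Log2 change of FPKM + 1 in NP-D@M minus NP@M, without a filter, against genomic span in kb (log axis) for the 43 members, with the median of members (dotted) and of all tested protein-coding genes (solid) in each of 4 span classes. The members over 60 kb lie mostly below 0, while Hdac1 and Hdac2 stand apart at nearly the same span.

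Promoters were looked at for the members that moved most on the deposited scale, among those for which a RefSeq window was at hand. Hdac1, which rose most, had none and is not shown. RefSeq windows that run from upstream of the gene start to shortly after it (GRCm38.p6) matched 32 of the 43 members by symbol; for 4 of these (Setd1a, Kdm2b, Hdac4 and Setd5) the RefSeq start lay over 300 bases inside the deposited gene. Shown are the pair with the largest rises and the pair with the largest falls on the deposited scale among members whose window lies at the gene start; scaled by table reads, the log2 changes of the rising pair were 0.01 for Hdac5 and -0.012 for Hdac6. They are Hdac5 (chr11:102230123-102230422, minus strand), Hdac6 (chrX:7947840-7948139, minus strand), Kdm3a (chr6:71632868-71633167, minus strand) and Hdac2 (chr10:36974294-36974593, plus strand), each written 5′ to 3′ on the strand of the gene. Capitals mark 4 motifs. The GC box was searched as GGGCGG and its reverse complement. The CCAAT box was searched in the same way, as were the TATA box by the letters TATAAA and the E-box by the letters CACGTG.
Hdac5: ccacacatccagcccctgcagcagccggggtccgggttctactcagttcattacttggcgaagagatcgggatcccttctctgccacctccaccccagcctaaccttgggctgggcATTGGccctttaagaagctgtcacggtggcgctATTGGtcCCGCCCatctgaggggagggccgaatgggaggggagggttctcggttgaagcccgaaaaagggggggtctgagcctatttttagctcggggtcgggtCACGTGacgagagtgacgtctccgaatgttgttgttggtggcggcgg
Hdac6: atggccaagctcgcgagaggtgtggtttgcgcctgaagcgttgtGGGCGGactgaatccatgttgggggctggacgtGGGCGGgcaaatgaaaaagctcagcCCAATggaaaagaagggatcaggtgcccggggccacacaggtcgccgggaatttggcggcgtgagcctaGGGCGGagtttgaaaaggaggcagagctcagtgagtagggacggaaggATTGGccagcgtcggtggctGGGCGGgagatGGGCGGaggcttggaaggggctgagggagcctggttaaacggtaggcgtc
Kdm3a: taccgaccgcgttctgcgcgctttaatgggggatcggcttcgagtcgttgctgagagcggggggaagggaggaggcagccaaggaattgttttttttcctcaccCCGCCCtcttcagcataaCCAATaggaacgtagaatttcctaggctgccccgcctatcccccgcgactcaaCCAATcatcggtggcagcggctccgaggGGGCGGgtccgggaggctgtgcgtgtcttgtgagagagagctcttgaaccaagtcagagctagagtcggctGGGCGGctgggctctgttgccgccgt
Hdac2: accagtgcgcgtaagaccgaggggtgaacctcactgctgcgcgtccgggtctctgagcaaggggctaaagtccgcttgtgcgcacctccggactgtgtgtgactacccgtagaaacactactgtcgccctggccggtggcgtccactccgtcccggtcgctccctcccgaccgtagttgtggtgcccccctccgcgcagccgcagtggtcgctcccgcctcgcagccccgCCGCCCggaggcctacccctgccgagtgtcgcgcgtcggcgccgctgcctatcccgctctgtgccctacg
Kdm3a and Hdac6 hold 3 and 5 GC boxes and 2 CCAAT letters each, Hdac5 holds 1 GC box, 2 CCAAT and the E-box, and Hdac2 holds 1 GC box. The GC box occurred in 62.5% of the 32 member windows and in 35.7% of all 32851 windows, CCAAT in 46.9% and 37.4%, TATAAA in 6.25% and 13.6%, and CACGTG in 6.25% and 7.15%. Member windows held a median of 23 CG dinucleotides, against 7 over all windows. The 2 sets were not chosen alike. Each member, a protein-coding gene, kept only the window nearest its start, whereas all 32851 windows were taken without such a choice. The difference between the sets was not tested. Among matched members called in NP-D@M against NP@M, the GC box was in 6 of 7 called higher and 10 of 18 called lower, and CCAAT in 5 of 7 and 7 of 18. Without the 4 windows far from the deposited start, the GC box was in 64.3% of 28 member windows, 6 of 7 called higher and 8 of 14 called lower. These matches are letters in a window and not shown sites.

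Partners of these enzymes were examined in lists drawn from textbook complexes; over all tested genes 41.8% were called higher and 47.7% lower, and 17.5% and 70.5% when scaled by table reads. Of 12 other histone lysine methyltransferases tested, 2 rose and 10 fell in NP-D@M against NP@M, with the same split when scaled by table reads. Ehmt2, the euchromatic H3K9 methyltransferase G9a, was at 188 ± 26.7 FPKM in NP-D@M and 20.3 ± 1.38 in NP@M (log2 change 3.14, adjusted p = 2.84e-10 by limma; 1.34 scaled by table reads), whereas its heterodimer partner Ehmt1 was at 1.11 ± 0.0748 FPKM in NP-D@M and 4.06 ± 0.0951 in NP@M (log2 change -1.27, adjusted p = 2.66e-07). The pair thus moved apart, as Hdac1 and Hdac2 did. Of the other JmjC proteins, 7 of 7 fell, with Jmjd6 at 1.01 ± 0.0431 FPKM in NP-D@M and 5.68 ± 0.188 in NP@M (log2 change -1.73, adjusted p = 2.78e-08 by limma).

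HDAC corepressor subunits were called higher in 8 of 23 and lower in 15, with a median log2 change of -0.78 beside -0.19 for all tested genes, against 41.8% and 47.7% of all genes called; scaled by table reads 4 were higher and 19 lower, against 17.5% and 70.5%. Chd3, a NuRD helicase, had the smallest adjusted p among the rises, at 59.9 ± 5.16 FPKM in NP-D@M and 5.87 ± 0.360 in NP@M (log2 change 3.15, adjusted p = 8.65e-11 by limma; 1.44 scaled by table reads). Gatad2b, another NuRD subunit, had the smallest among the falls, at 1.22 ± 0.0728 FPKM in NP-D@M and 4.79 ± 0.155 in NP@M (log2 change -1.38, adjusted p = 3.57e-08). Of the COMPASS and Polycomb partners, which serve the Kmt2 and Ezh enzymes, 5 of 15 were called higher and 9 lower, and 0 and 14 when scaled by table reads. Rbbp7, a histone-binding subunit shared by Polycomb and HDAC complexes, was at 204 ± 19.3 FPKM in NP-D@M and 65.6 ± 2.33 in NP@M (log2 change 1.62, adjusted p = 9.44e-09 by limma; -0.20 scaled by table reads). Rbbp5, a core COMPASS subunit, was at 2.63 ± 0.371 FPKM in NP-D@M and 10.6 ± 0.573 in NP@M (log2 change -1.67, adjusted p = 1.29e-07). The demethylase Kdm6a is counted in this list as well. In NP-D@MP against PBS 2 other methyltransferases were called higher and 9 lower, and 0 other JmjC proteins higher and 7 lower. There 8 corepressor subunits were called higher and 15 lower, and 5 COMPASS and Polycomb partners higher and 9 lower. The shares of all tested genes in that comparison were 43.2% and 47.3%. Scaled by table reads, the counts in the same order were 2 and 10, 0 and 7, 4 and 19, and 0 and 13, against 17.5% and 70.8%.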

How the data were processed

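RNA sequencing libraries of CT26 cells were made with an Illumina TruSeq kit, per the labels' protocols, and grouped by their titles; whether the 3 libraries per group are independent cultures is not stated, and the p-values thus reflect the spread of these samples alone, possibly a technical one. The authors deposited FPKM values with gene lengths; the gene counter, its strand setting and the scaling have no description (not given in the sources used here). The submitters' processing notes name Bowtie 0.12.2 and mm8, but 42 of the 43 members have the coordinates of GENCODE M21 for GRCm38. FPKM times length was a whole multiple of a step per library for 100% of values (tolerance 1e-06), which gave reads and effective library sizes. Replicates differed by more than counting noise (chi-square per degree of freedom 6.93 to 57.7), so none was a duplicate.

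Limma 3.58.1 in R 4.3.3 was fitted to log2(FPKM + 1) of 10101 genes with at least 1 FPKM in at least 3 libraries, all 12 libraries together, with Benjamini-Hochberg adjustment over all of them; log2 changes understate those of low genes, and folds are ratios of mean FPKM. Steps were tested on simulated data. The members, the lists and the rule for named genes (in each list of enzymes the called gene with the smallest adjusted p in each direction, called genes of the comparisons with few calls, genes whose direction depends on scaling, and 8 genes by name, with the same smallest-p rule in other lists) were chosen with earlier results of these data known; other members are named for their roles or counts. Setd7, Kdm4d, Kdm8 and Kdm5d are not analysed here. Alternatives were 3 other scalings, testing unfiltered genes, a minimum mean of 5 FPKM, 0.1 as the pseudocount, trend and robust settings, only the 6 libraries compared, stricter thresholds and leaving out each library; voom on recovered reads and a scaling without mitochondrial and ribosomal protein genes were added after seeing the data. Without a stated strand setting, reads of overlapping or antisense genes cannot be told apart. Read counts carry counting error, and duplicate reads are not marked. Promoter windows are from RefSeq, GRCm38.p6.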

Additional observations from a re-analysis of the deposited data

How the results depend on the processing

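The scaling decided the direction of most rises. Scaled by table reads, 1 member was called higher and 38 lower in NP-D@M against NP@M, and 1 and 37 in NP-D@MP against PBS. Voom on the recovered reads with the reads in the table as library sizes gave 1 and 38, and 1 and 37, and leaving mitochondrial and ribosomal protein genes out of that scaling gave 1 higher in each. With a mean of at least 5 FPKM, 14 members were tested and 5 were called lower in NP-D@M against NP@M and 3 in NP-D@MP against PBS. No call of these 14 changed, and Hdac1, Hdac3, Hdac5, Hdac6, Hdac10, Kmt5a, Setd3 and Setd6 stayed called higher in both comparisons. With a log2 change of at least 1, 6 were higher and 16 lower in NP-D@M against NP@M. In NP-D@MP against NP-D@M, leaving out a library gave 0 to 1 higher and 0 to 2 lower. Scaled by table reads, the log2 change turned in NP-D@M against NP@M for Setd1b (-0.97), Kmt5a (-0.48), Setd3 (-0.46), Setd6 (-0.68), Kdm1b (-0.84), Hdac3 (-0.22), Hdac8 (-0.81), Hdac7 (-1.36), Hdac10 (-0.94), Hdac11 (-0.44) and Hdac6 (-0.012). In NP-D@MP against PBS it turned for Setd1b (-1.07), Kmt5a (-0.52), Setd3 (-0.47), Setd6 (-0.31), Kdm1b (-1.04), Hdac3 (-0.28), Hdac8 (-0.95), Hdac5 (-0.23), Hdac7 (-1.61), Hdac10 (-0.63), Hdac11 (-0.70) and Hdac6 (-0.17). Under quantile normalization it turned in NP-D@M against NP@M for Kmt2c (0.56), Kmt2d (0.36), Kmt5a (-0.29), Setdb2 (0.16) and Hdac9 (0.11), and in NP-D@MP against PBS for Kmt2c (0.17), Kmt5a (-0.32), Setdb2 (0.33) and Hdac9 (0.078). The cause was not tested. Hdac1 stayed called higher and Hdac2 lower in both comparisons when scaled by table reads, to a common median ratio or by quantiles; under quantile normalization the calls of Kdm3b and Kdm4b as lower in NP-D@M against NP@M were lost.

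Leaving out each library gave 8 to 11 members higher and 25 to 26 lower in NP-D@M against NP@M, 8 to 9 and 24 in NP-D@MP against PBS, and 0 in NP@M against PBS. No paired analysis was possible because the library numbers run through all groups and none is shared. With D, members under 0.5 FPKM rest on few reads, such as 0 to 24 reads per library for Kdm5b.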

Other observations

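Enzymes of other histone marks also moved in NP-D@M against NP@M. Of 7 protein arginine methyltransferases tested, 4 were called higher and 3 lower (limma, adjusted p under 0.05), and 2 and 5 when scaled by table reads. Over all tested genes 41.8% were called higher and 47.7% lower, and 17.5% and 70.5% when scaled by table reads. Prmt1, the main arginine methyltransferase of mammalian cells, was at 359 ± 9.09 FPKM in NP-D@M and 34.7 ± 3.19 in NP@M (SD, n = 3 each; log2 change 3.34, adjusted p = 6.42e-11 by limma; 1.53 scaled by table reads). Prmt9 was at 0.151 ± 0.134 FPKM in NP-D@M and 2.66 ± 0.385 in NP@M (log2 change -1.67, adjusted p = 4.12e-08 by limma). The median log2 change of this list was 0.93, beside -0.19 for all tested genes.

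Histone acetyltransferases were called higher in 2 of 9 and lower in 6, with a median log2 change of -1.34, against 41.8% and 47.7% of all genes; scaled by table reads 0 were higher and 9 lower, against 17.5% and 70.5%. Kat2a, the acetyltransferase of the SAGA complex, was at 32.2 ± 4.98 FPKM in NP-D@M and 11.5 ± 0.743 in NP@M (log2 change 1.40, adjusted p = 2.50e-07 by limma; -0.34 scaled by table reads). Kat6a was at 0.670 ± 0.174 FPKM in NP-D@M and 7.19 ± 0.532 in NP@M (log2 change -2.30, adjusted p = 1.36e-09 by limma). Of 5 sirtuins tested, the NAD-dependent deacetylases, 2 were called higher and 1 lower, and 1 and 3 when scaled by table reads. Sirt2, which acts on tubulin as Hdac6 does, was at 60.1 ± 4.22 FPKM in NP-D@M and 8.55 ± 0.318 in NP@M (log2 change 2.68, adjusted p = 2.16e-10 by limma; 0.94 scaled by table reads), and Sirt5 at 0.501 ± 0.337 FPKM in NP-D@M and 1.43 ± 0.256 in NP@M (log2 change -0.72, adjusted p = 0.00250 by limma).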
